A study of Mus musculus with 2 samples.

Results

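Cxcl9, Cxcl10 and Cxcl16 encode 3 chemokine ligands, and Cxcr3 and Cxcr6 encode the 2 receptors that read them. These 5 genes, found by their symbols among the 31253 genes of both count matrices, were followed across cell classes of MB49 tumours, grown from a mouse bladder cancer line. Live CD45+ cells were sorted from tumours of chimeric mice, in which female hosts had been lethally irradiated and given male bone marrow. The library labelled Lcn2-ko came from hosts given Lcn2-KO marrow, and the library labelled wt from hosts given WT marrow. There was 1 library per label. The number of mice behind each library and their ages are not given in the sources used here, and the sample labels give the sex as female while the protocol text also speaks of male and female tumour mice. Irradiation and a marrow graft were common to both groups. The graft stands in for a loss of Lcn2 in marrow-derived cells, which are not only myeloid. The tumour cells, the stroma and any radioresistant host immune cells keep the host or tumour genotype. Lcn2 encodes lipocalin 2, a siderophore-binding protein of neutrophil granules, and the study asked what it means for the diversity of neutrophils.

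Because each label had 1 library, differences between them have no replicate check, and no p-value is given. Cells of 1 library are not replicates. Intervals in brackets are 95% intervals for the counting of unique molecular identifiers (UMIs, 1 per captured RNA molecule) or of cells, and they cover counting error only. Levels are UMIs of a gene per 1000000 UMIs of a class (CPM), and ratios are log2 of the CPM in the Lcn2-ko-labelled library over the CPM in the wt-labelled library. The matrices held 7788 and 7974 cell barcodes with 40959725 and 42069099 UMIs in the Lcn2-ko-labelled and wt-labelled libraries, and 7209 and 7397 cells were kept. The median barcode had 3570 UMIs in the Lcn2-ko-labelled library and 3574.5 in the wt-labelled library. The libraries had 4 barcodes in common. Lcn2 itself did not separate the labels cleanly: it stood at 15.6 CPM in all Lcn2-ko-labelled cells, against 16.7 CPM in all wt-labelled cells, and at 131 CPM against 184 CPM in neutrophils. In neutrophils with Y-linked RNA and no Xist, as male marrow would give, it was 65.0 CPM (36.4 to 107) in the Lcn2-ko-labelled library, against 184 CPM (150 to 223) in the wt-labelled library, the direction of the labels. In neutrophils with neither marker it was 172 CPM (134 to 217) and 188 CPM (155 to 225). The deleted part of the gene is not given in the sources used here, and the counts come from the 3' end of transcripts, so Lcn2 may be counted from a disrupted gene and does not settle the labels. For that reason the groups are called by their labels throughout.

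Cells were placed in classes by counting marker genes, none of which is one of the 5 genes. The 11 classes that held 100 cells or more on both sides entered the comparison, and they ran from 108 wt-labelled monocytes to 1522 wt-labelled cells of the tumour or stromal gate. CD8 T cells numbered 1186 in the Lcn2-ko-labelled library and 878 in the wt-labelled library, regulatory T cells (Treg) 1110 and 1127, macrophages 302 and 270, neutrophils 402 and 649, and cross-presenting dendritic cells (cDC1) 274 and 478. The tumour or stromal gate, rich in keratin and collagen transcripts, held 1400 and 1522 cells although the sort was for CD45. Its Ptprc, the gene of CD45, stood at 12.5 CPM in the Lcn2-ko-labelled library and 12.2 CPM in the wt-labelled library, with a Ptprc UMI in 9.57% and 9.59% of cells, so these cells go against the sort label. The mature dendritic gate carried high Ccr7 and Fscn1 but had a Ptprc UMI in only 43.8% of Lcn2-ko-labelled cells and 70.8% of wt-labelled cells. Unassigned cells made up 11.9% of the Lcn2-ko-labelled library and 12.6% of the wt-labelled library.

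CXCL9 and CXCL10 are secreted chemokines that interferon-gamma switches on in macrophages, dendritic cells and tumour cells, and both bind CXCR3, a receptor of activated T cells and NK cells. CXCL16 is made as a membrane-bound chemokine that can be shed by the proteases ADAM10 and ADAM17, and it binds CXCR6, a receptor of effector and tissue-resident T cells. In tumours the CXCR3 pair is known for drawing in and positioning T cells, and the CXCL16 and CXCR6 pair for holding CD8 T cells beside dendritic cells.

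Cxcl9 and Cxcl10 are neighbours on mouse chromosome 5 (mm10, GENCODE vM21), Cxcl9 at chr5:92321347-92328079 and Cxcl10 at chr5:92346638-92348889, both on the minus strand with 18558 bases between them. Cxcl16 lies at chr11:70453983-70459984 on the minus strand, Cxcr3 at chrX:101731535-101734269 on the minus strand and Cxcr6 at chr9:123806475-123811760 on the plus strand. The 250 bases upstream of the start of Cxcl9 and of Cxcl10 (RefSeq, GRCm38.p6, at chr5:92328080-92328329 and chr5:92348890-92349139, read on the minus strand) are shown because the levels of the pair parted in macrophages. Capitals mark matches, on either strand, to an interferon-stimulated response element core (GAAA and GAAA with 2 bases of any kind between them) or a kappaB core (GGG and TTCC with 3 bases of any kind between them).
Cxcl9: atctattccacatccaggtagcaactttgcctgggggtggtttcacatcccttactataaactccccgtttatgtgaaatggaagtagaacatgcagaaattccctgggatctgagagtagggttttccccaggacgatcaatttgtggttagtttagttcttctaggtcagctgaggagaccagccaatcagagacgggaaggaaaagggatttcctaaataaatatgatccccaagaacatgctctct
Cxcl10: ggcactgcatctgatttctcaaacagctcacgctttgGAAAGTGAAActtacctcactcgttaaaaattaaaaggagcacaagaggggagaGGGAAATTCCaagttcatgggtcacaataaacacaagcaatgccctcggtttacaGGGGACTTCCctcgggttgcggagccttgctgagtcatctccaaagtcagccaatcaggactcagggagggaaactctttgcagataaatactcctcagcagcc
The Cxcl10 window held 1 response element core, starting 213 bases before the start, and 2 kappaB cores, starting 159 and 104 bases before it. Neither core was in the Cxcl9 window, and a gamma-activated site core (TTC and GAA with 3 bases of any kind between them) was in neither. Of 32851 promoter windows of the same length, 2.98% held the response element core, 4.65% the kappaB core and 7.02% the gamma-activated site core. No match was found in the Cxcr3 and Cxcr6 windows either. A match is a description of letters, not of a bound site, and a window without one says nothing about the factor.

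Over all kept cells, Cxcl9 was counted at 8539 UMIs in the Lcn2-ko-labelled library and 5801 in the wt-labelled library, a log2 ratio of 0.60 (0.55 to 0.65). Cxcl10 had 11197 and 11188 UMIs (log2 ratio 0.04), Cxcl16 5965 and 6657 (-0.12) and Cxcr3 723 and 717 (0.05). Cxcr6 had 2966 and 2318 UMIs (0.40, 0.32 to 0.48). Whole-library totals mix levels within classes with the sizes of the classes, which differed: CD8 T cells, which hold much of the Cxcr6, made up 16.5% of kept cells in the Lcn2-ko-labelled library and 11.9% in the wt-labelled library.

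Set against a 1.5-fold limit, 27 pairs of a member and a class reached 50 CPM in either library. Of these, 5 were at least 1.5-fold higher in the Lcn2-ko-labelled library (18.5%), beside 937 of 38011 pairs over all genes (2.47%). A single pair was at least 1.5-fold lower (3.70%), beside 3.03% over all genes. The 5 higher pairs were Cxcl9 in monocytes, in mature dendritic cells and in the tumour or stromal gate, Cxcl16 in monocytes and Cxcl10 in other T cells. The lower pair was Cxcl10 in macrophages. Small classes give more such calls from counting alone, so each pair is read against the share of all genes called in its own class. Over all genes at 50 CPM or more, the shares called higher and lower were 5.26% and 4.17% in neutrophils, 0.684% and 1.84% in macrophages, 6.95% and 8.4% in monocytes, 0.871% and 1.71% in cDC1 and 5.19% and 6.17% in mature dendritic cells. They were 0.573% and 0.6% in Treg, 3.29% and 3.83% in CD4 T cells, 0.845% and 1.27% in CD8 T cells, 2.2% and 2.14% in other T cells, 1.81% and 3.32% in NK cells, and 0.325% and 0.515% in the tumour or stromal gate.

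Cxcl9, the ligand most dependent on interferon-gamma, was highest in macrophages in both libraries, at 625 CPM (1652 UMIs) in the Lcn2-ko-labelled library and 564 CPM (1333 UMIs) in the wt-labelled library. The ratio was 0.15 (0.04 to 0.25), under the 1.5-fold limit. Next came the tumour or stromal gate, at 317 CPM in the Lcn2-ko-labelled library (4169 UMIs) and 161 CPM in the wt-labelled library (2243 UMIs). The 2 libraries therefore stood apart in that gate but hardly in macrophages. Macrophages were above the tumour or stromal gate by a log2 ratio of 0.98 (0.90 to 1.06) in the Lcn2-ko-labelled library and 1.81 (1.71 to 1.91) in the wt-labelled library.

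In the tumour or stromal gate the Cxcl9 ratio between the libraries was 0.98 (0.90 to 1.05), where 0.325% of all genes at 50 CPM or more were at least 1.5-fold higher. With every cell thinned to 800 UMIs, 13.7% of Lcn2-ko-labelled cells of the gate had a Cxcl9 UMI, against 7.70% of wt-labelled cells. Both the level and the share of cells were thus higher in the Lcn2-ko-labelled library, and the ratio stayed between 0.92 and 1.03 under every alternative tried. Macrophage markers in the same gate summed to 79.1 CPM over 10 of 10 genes in the Lcn2-ko-labelled library and 63.8 CPM over 10 of 10 genes in the wt-labelled library. T cell markers summed to 110 CPM and 79.0 CPM over 8 of 8 genes. Their part in the result was not tested.

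Cxcl9 in mature dendritic cells, the migratory Ccr7-bearing state, was 175 CPM in the Lcn2-ko-labelled library (116 UMIs) and 39.5 CPM in the wt-labelled library (27 UMIs), a log2 ratio of 2.15 (1.53 to 2.81), where 5.19% of genes were called higher. One cell held 47 of the 116 UMIs in the Lcn2-ko-labelled library and another 9 of the 27 in the wt-labelled library. Without these cells the ratio was 1.97. Tumour or stromal markers summed to 2743 CPM in the gate in the Lcn2-ko-labelled library (10 of 11 genes, Krt7 at 0) and 1779 CPM in the wt-labelled library (9 of 11 genes, Krt7 and Col1a2 at 0). In the cells of the gate with at most 2 tumour or stromal markers, 95 of 112 in the Lcn2-ko-labelled library and 97 of 113 in the wt-labelled library, Cxcl9 stood at 201 CPM and 33.6 CPM, a ratio of 2.58 (1.84 to 3.39). In the cells with more than 2 such markers it stood at 106 CPM (19 UMIs) and 61.0 CPM (9 UMIs), a ratio of 0.79 (-0.42 to 2.12). That split was chosen after the values were seen.

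Monocytes had 150 CPM of Cxcl9 in the Lcn2-ko-labelled library (98 UMIs) and 58.9 CPM in the wt-labelled library (22 UMIs), a log2 ratio of 1.35 (0.67 to 2.08), where 6.95% of genes were called higher. The counts are small, and 27 cells held them in the Lcn2-ko-labelled library and 9 in the wt-labelled library. Macrophage markers in this gate summed to 1627 CPM and 1400 CPM (9 of 10 genes in each library, C1qa at 0 in both) and T cell markers to 368 CPM and 198 CPM. Among single markers, Mrc1 stood at 139 and 45.5 CPM and Cd209a at 150 and 40.1 CPM in the Lcn2-ko-labelled and wt-labelled libraries. Ccr2 stood at 573 and 541 CPM, Ly6c2 at 1149 and 1325 CPM and F13a1 at 360 and 458 CPM. Mrc1 and Cd209a thus parted between the libraries more than Ccr2, Ly6c2 and F13a1 did. Whether the make-up of the gate differed was not tested, nor was the part of these markers in the result.

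Cross-presenting dendritic cells, which prime CD8 T cells, had 147 CPM of Cxcl9 in the Lcn2-ko-labelled library and 138 CPM in the wt-labelled library, a ratio of 0.08 (-0.12 to 0.28). Neutrophils had 79.5 CPM from 52 UMIs in 14 cells in the Lcn2-ko-labelled library and 55.5 CPM from 68 UMIs in 33 cells in the wt-labelled library. The neutrophil ratio of 0.52 (-0.03 to 1.06) rested on a few cells: without the 10 cells richest in Cxcl9 in each library it was -1.67, and with classes taken from clusters it was -0.57. T and NK classes, which are not known as sources of Cxcl9, ranged from 8.73 to 33.4 CPM. The highest of these levels were in Lcn2-ko-labelled other T cells (33.4 CPM, against 14.5 CPM in the wt-labelled library) and CD4 T cells (30.3 and 10.3 CPM, from 36 and 12 UMIs), beside macrophage markers that summed to 312 and 208 CPM in other T cells and 197 and 153 CPM in CD4 T cells (10 of 10 genes each). In thinned cells 0.54% of Lcn2-ko-labelled Treg and 0.62% of wt-labelled Treg had a Cxcl9 UMI, beside 26.0% and 24.9% of macrophages.

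**Figure D1:**
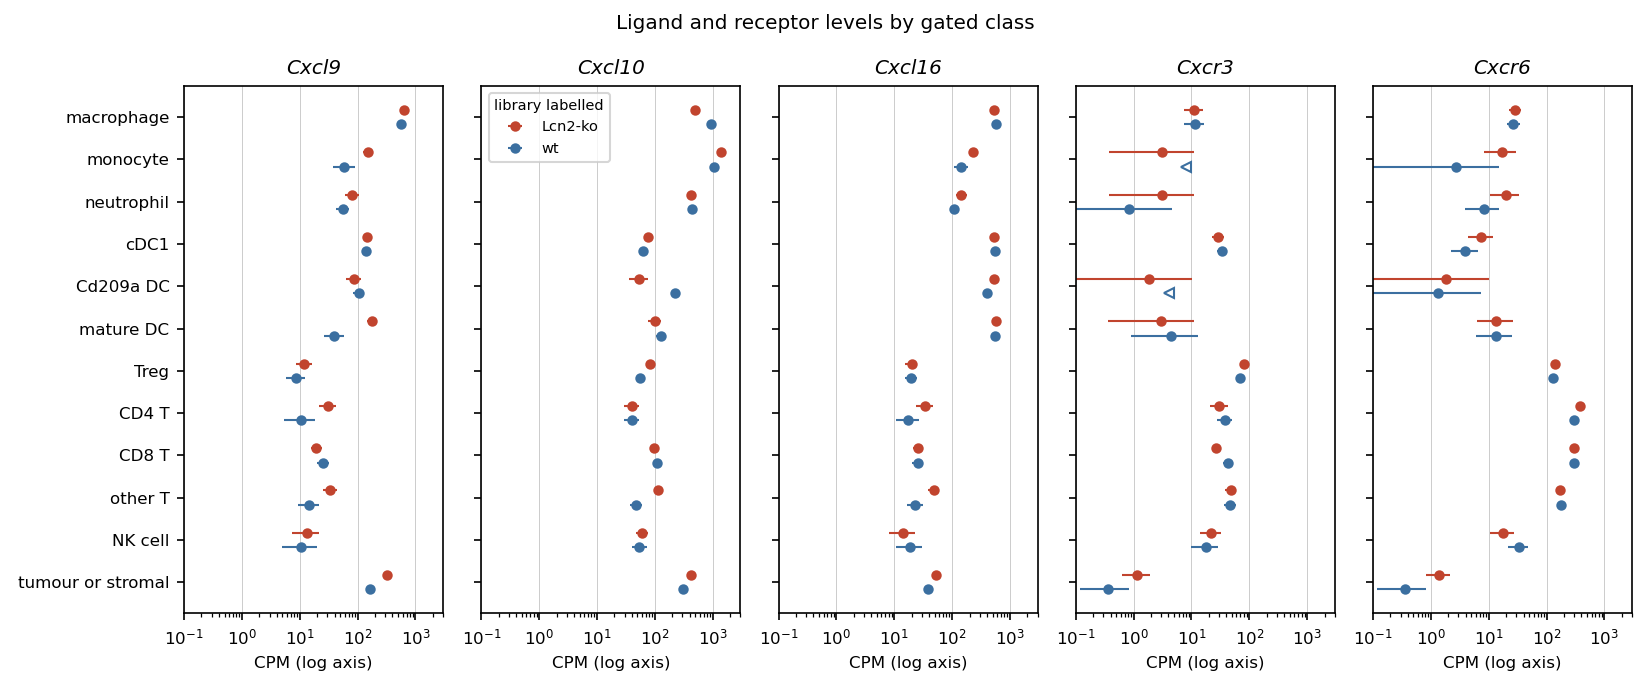
Level of each gene in each gated class, in CPM on a log axis, in the libraries labelled Lcn2-ko (red) and wt (blue). Points are class totals, lines are exact 95% Poisson intervals for counting error, and open triangles mark a limit of 3 UMIs where none was counted. The highest level of each ligand is in a myeloid class and that of each receptor in a T cell class. Not every myeloid class is above the T cells: Cxcl10 is 74.7 and 63.4 CPM in cDC1 and 96.6 and 111 CPM in CD8 T cells. The red and blue points part for Cxcl10 in macrophages (494 and 950 CPM) and for Cxcl9 in the tumour or stromal gate (317 and 161 CPM).

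Cxcl10, which answers interferons of both types as well as NF-kappaB, had another order of sources. Monocytes were highest, at 1388 CPM in the Lcn2-ko-labelled library (909 UMIs) and 1038 CPM in the wt-labelled library (388 UMIs), a ratio of 0.42 (0.25 to 0.59). Macrophages had 494 CPM in the Lcn2-ko-labelled library (1306 UMIs) and 950 CPM in the wt-labelled library (2247 UMIs). The macrophage ratio of -0.94 (-1.04 to -0.85) was the 1 pair called lower, where 1.84% of genes were called lower in that class. Monocytes were above macrophages by a log2 ratio of 1.49 (1.37 to 1.61) in the Lcn2-ko-labelled library, while in the wt-labelled library the 2 classes did not differ beyond counting error (0.13, -0.03 to 0.28).

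The share of macrophages with a Cxcl10 UMI in cells thinned to 800 UMIs was 18.9% in the Lcn2-ko-labelled library and 35.8% in the wt-labelled library. Without the richest cell of each library the ratio was -0.99, and over all alternatives it lay between -1.21 and -0.86. The level, the share of cells and the alternatives thus all had Cxcl10 lower in Lcn2-ko-labelled macrophages, while Cxcl9 and Cxcl16 in the same cells were within 1.5-fold. Neutrophil markers summed to 6378 CPM in these macrophages in the Lcn2-ko-labelled library and 6199 CPM in the wt-labelled library (12 of 12 genes in each), T cell markers to 810 CPM and 740 CPM (8 of 8), and tumour or stromal markers to 365 CPM and 273 CPM (9 of 11, Krt7 and Timp3 at 0). Unlike their sum, the neutrophil markers S100a8 (91.1 and 187 CPM) and Csf3r (46.5 and 60.1 CPM) were lower in the Lcn2-ko-labelled library. In neutrophils themselves S100a8 stood at 4116 and 4056 CPM and Csf3r at 1006 and 1020 CPM. The part of all these markers in the result was not tested.

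Neutrophils had 428 CPM of Cxcl10 in the Lcn2-ko-labelled library (280 UMIs) and 442 CPM in the wt-labelled library (541 UMIs), a ratio of -0.05 (-0.26 to 0.17). The tumour or stromal gate had 424 CPM and 308 CPM (5574 and 4296 UMIs), a ratio of 0.46 (0.40 to 0.52) that is under 1.5-fold. Neutrophils and the tumour or stromal gate were at the same level in the Lcn2-ko-labelled library within counting error (0.01, -0.16 to 0.19), and neutrophils were above the gate in the wt-labelled library (0.52, 0.39 to 0.65). Dendritic classes were lower, at 74.7 CPM in Lcn2-ko-labelled cDC1 and 63.4 CPM in wt-labelled cDC1, and 99.6 CPM and 129 CPM in mature dendritic cells (-0.37, -0.85 to 0.11).

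Other T cells, the T-gated cells that met none of the CD4, CD8 or Treg rules, are a mixed class. Its cells had UMIs of both Cd4 and Cd8, of both Foxp3 and Cd8, of Foxp3 without the full Treg rule, or of none of these. In it Foxp3 stood at 205 CPM in the Lcn2-ko-labelled library and 172 CPM in the wt-labelled library, Cd4 at 201 and 153 CPM, and Cd8a at 287 and 165 CPM. These cells had 112 CPM of Cxcl10 in the Lcn2-ko-labelled library (197 UMIs) and 47.7 CPM in the wt-labelled library (76 UMIs), a ratio of 1.23 (0.84 to 1.63), where 2.2% of genes were called higher. One cell held 39 of the UMIs in the Lcn2-ko-labelled library, and without the 10 richest cells of each library the ratio was 0.30. The share of thinned cells with a UMI was 3.97% in the Lcn2-ko-labelled library and 3.07% in the wt-labelled library, so the share differed far less than the level. With classes taken from clusters the ratio was 0.58, under the limit. Macrophage markers summed to 312 CPM and 208 CPM in other T cells (10 of 10 genes in each library), and tumour or stromal markers to 700 CPM and 281 CPM (10 of 11 genes with Krt7 at 0, and 9 of 11 with Krt7 and Timp3 at 0). Both marker sums and Cxcl10 were higher in the Lcn2-ko-labelled library, and their part was not tested. In the remaining lymphoid classes Cxcl10 ran from 39.6 CPM in Lcn2-ko-labelled CD4 T cells to 111 CPM in wt-labelled CD8 T cells. Treg had 80.8 CPM in the Lcn2-ko-labelled library and 55.3 CPM in the wt-labelled library (0.55, 0.28 to 0.82), with 1 cell holding 47 of 288 UMIs and another 30 of 190.

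Counted within a class, the 2 CXCR3 ligands stood in different proportions. Macrophages had 0.791 Cxcl10 UMIs per Cxcl9 UMI in the Lcn2-ko-labelled library (0.735 to 0.851) and 1.69 in the wt-labelled library (1.57 to 1.81), so which ligand was the more abundant differed between the labels. That was also so in mature dendritic cells, at 0.569 (0.414 to 0.776) and 3.26 (2.10 to 5.22), from 116 and 27 Cxcl9 UMIs. A single Lcn2-ko-labelled cell held 47 of those 116 UMIs, beside 66 Cxcl10 UMIs in the class. The order in that library thus leaned on 1 cell, which the interval does not cover. The tumour or stromal gate had 1.34 (1.28 to 1.39) and 1.92 (1.82 to 2.02). Monocytes had 9.28 (7.52 to 11.5) and 17.6 (11.5 to 28.5), and cDC1 0.510 (0.424 to 0.612) and 0.458 (0.392 to 0.535). Monocytes were thus a class mainly of Cxcl10 and cDC1 one mainly of Cxcl9 in both libraries.

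Cxcl16, the membrane-bound ligand of CXCR6, was the most even of the ligands between the libraries in macrophages, cDC1 and mature dendritic cells. Macrophages had 526 CPM in the Lcn2-ko-labelled library and 565 CPM in the wt-labelled library (-0.10, -0.21 to 0.01), cDC1 533 and 544 CPM (-0.03, -0.13 to 0.07) and mature dendritic cells 563 and 545 CPM (0.05, -0.16 to 0.26). Neither macrophages nor mature dendritic cells differed from cDC1 beyond counting error in either library. Without thinning, 89.4% of Lcn2-ko-labelled macrophages and 91.9% of wt-labelled macrophages had a Cxcl16 UMI, and in cells thinned to 800 UMIs the shares lay between 32.1% and 38.4% over the 3 classes and both libraries.

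Monocytes had less Cxcl16, at 229 CPM in the Lcn2-ko-labelled library (150 UMIs) and 142 CPM in the wt-labelled library (53 UMIs), a ratio of 0.69 (0.23 to 1.17) that passed the 1.5-fold limit in a class where 6.95% of genes did. With classes taken from clusters it was 0.31 and with cells thinned to 800 UMIs 0.38, both under the limit. Neutrophils had 145 CPM and 109 CPM (0.41, 0.01 to 0.80), and the tumour or stromal gate 53.1 CPM and 38.3 CPM (0.47, 0.31 to 0.64). T and NK classes ranged from 14.0 to 48.7 CPM. Among them, other T cells had 48.7 CPM in the Lcn2-ko-labelled library and 23.2 CPM in the wt-labelled library (1.07, 0.50 to 1.67). CD4 T cells had 33.7 and 17.2 CPM (0.97, 0.16 to 1.82). Both pairs were under the 50 CPM limit, and the ratio in other T cells changed sign with classes taken from clusters. On the opposite strand Cxcl16 shares 552 bases with Zmynd15, which had 122 UMIs in the Lcn2-ko-labelled library and 198 in the wt-labelled library against 5965 and 6657 for Cxcl16. How strand was used in counting is not given in the sources used here.

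**Figure D2:**
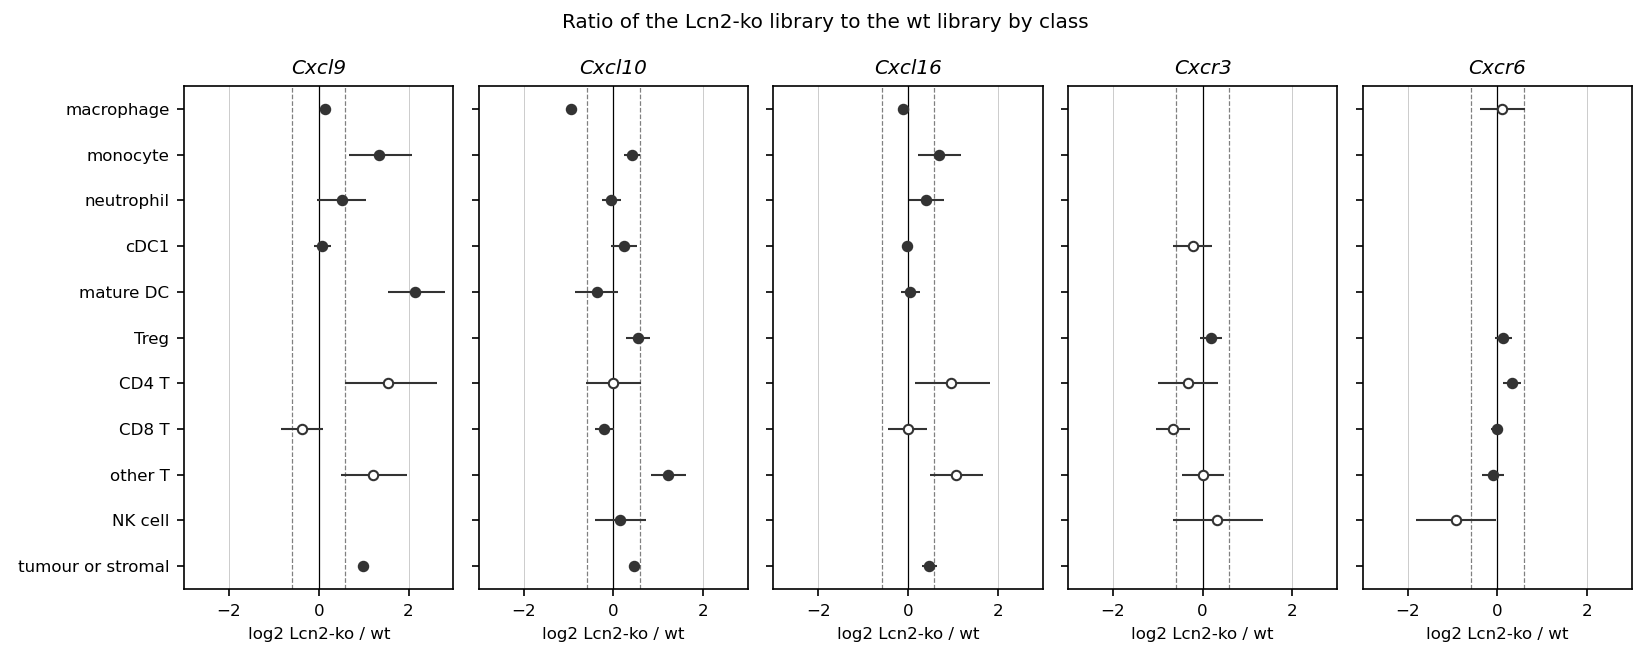
Log2 ratio of the Lcn2-ko-labelled library to the wt-labelled library for each gene and class with at least 20 CPM in either library. Lines are exact 95% intervals for counting error, filled points have at least 50 CPM in either library, and dashed lines mark 1.5-fold. Cxcl16 points in macrophages, cDC1 and mature dendritic cells sit at 0 within their intervals, while Cxcl10 in macrophages (-0.94) and Cxcl9 in the tumour or stromal gate (0.98) lie on opposite sides.

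Abundant classes weigh more in where the molecules of a ligand lay. The tumour or stromal gate held 48.8% of all Cxcl9 UMIs in the Lcn2-ko-labelled library and 38.7% in the wt-labelled library, and macrophages 19.3% and 22.98%. Of the Cxcl10 UMIs, the same gate held 49.8% and 38.4%, macrophages 11.7% and 20.1%, monocytes 8.12% and 3.47%, and neutrophils 2.50% and 4.84%. Cxcl16 lay mainly in myeloid classes, with 23.3% and 20.1% in macrophages, 21.5% and 31.3% in cDC1 and 11.7% and 8.02% in the tumour or stromal gate. These shares follow the numbers of cells caught as well as the levels, and the CD45 sort sets how many tumour or stromal cells there were.

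**Figure D3:**
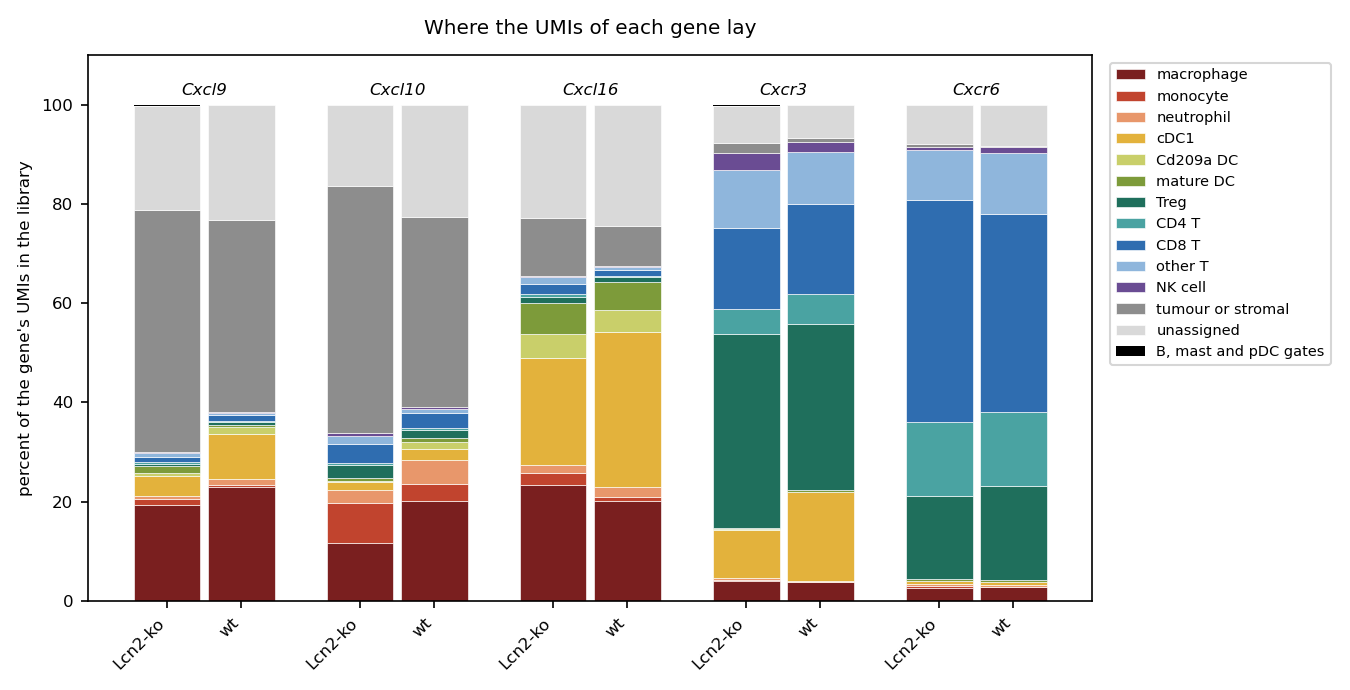
Percent of each gene's UMIs that lay in each gated class, per library, with Lcn2-ko left of wt in each pair. Dark grey marks the tumour or stromal gate, light grey the unassigned cells and black the B, mast and plasmacytoid dendritic cell gates. The tumour or stromal gate is the largest single block of Cxcl9 and Cxcl10 in both libraries, and the T cell gates hold most of the Cxcr3 and Cxcr6.

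A small number of cells carried most of the Cxcl9 and Cxcl10. The 30 Lcn2-ko-labelled and 27 wt-labelled macrophages richest in Cxcl9, about 10% of the class, held 60.3% of its UMIs in the Lcn2-ko-labelled library and 57.8% in the wt-labelled library, and for Cxcl10 66.5% and 52.7%. In the tumour or stromal gate the richest 10% of cells held 74.8% and 82.2% of the Cxcl9 and 76.7% and 79.2% of the Cxcl10. Cxcl16 was spread wider, with 29.5% and 27.1% of its macrophage UMIs in the richest 10% of cells. These shares also follow the depth of the cells, whose median was 8683 UMIs in Lcn2-ko-labelled macrophages and 8258 in wt-labelled macrophages.

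**Figure D4:**
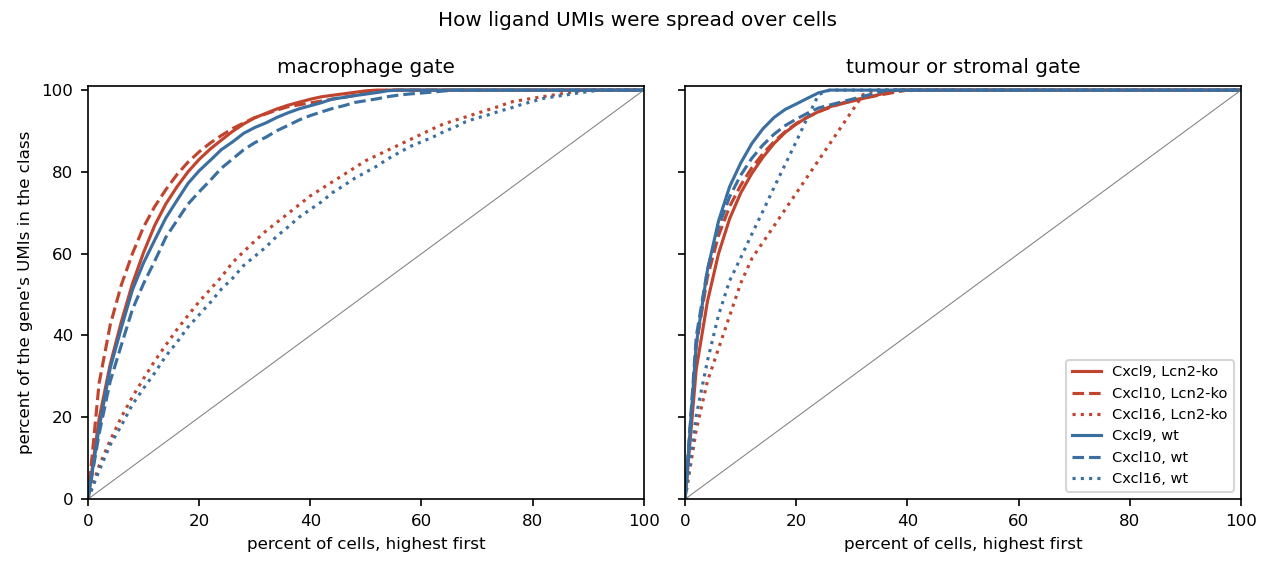
Percent of a ligand's UMIs (vertical axis) held by a given percent of cells (horizontal axis), with the richest cells first, in macrophages and in the tumour or stromal gate. Red lines are the library labelled Lcn2-ko, blue lines wt, the line style gives the ligand, and the grey diagonal is an even spread. In macrophages Cxcl16 runs closest to the diagonal, and Cxcl9 and Cxcl10 bend sharply in both classes.

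In the tumour or stromal gate, thinned cells with UMIs of both Cxcl9 and Cxcl10 numbered 62 of 1376 in the Lcn2-ko-labelled library and 26 of 1481 in the wt-labelled library. The product of the single shares would give 30.6 and 12.6 cells, so the ligands met in the same cells more often than that product in both libraries. For macrophages the numbers were 22 of 296 against a product of 14.6 in the Lcn2-ko-labelled library, and 25 of 265 against 23.7 in the wt-labelled library. Cxcl9 with Cxcl16 was found in 35 macrophages against 24.7 in the Lcn2-ko-labelled library, and in 34 against 24.4 in the wt-labelled library. These are counts without a test.

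Cxcr3, the receptor for CXCL9 and CXCL10, was counted sparsely. Treg were highest, at 79.4 CPM in the Lcn2-ko-labelled library (283 UMIs) and 69.9 CPM in the wt-labelled library (240 UMIs), a ratio of 0.18 (-0.07 to 0.44). Other T cells had 47.6 and 47.1 CPM (0.02, -0.45 to 0.48), and CD4 T cells 30.3 and 37.9 CPM (-0.32, -1.001 to 0.35). CD8 T cells had 26.9 CPM in the Lcn2-ko-labelled library (119 UMIs) and 42.5 CPM in the wt-labelled library (130 UMIs), a ratio of -0.66 (-1.03 to -0.29).

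The CD8 level was below the 50 CPM limit for a call; among genes of at least 20 CPM in CD8 T cells, 2.37% were at least 1.5-fold lower. The ratio lay between -0.72 and -0.52 under the alternatives tried. In thinned cells 2.78% of Lcn2-ko-labelled CD8 T cells and 3.88% of wt-labelled CD8 T cells had a Cxcr3 UMI, beside 6.94% and 4.37% of Treg and 0.30% and 0.00% of neutrophils (1 of 333 and 0 of 579 cells). Treg were above CD8 T cells by a log2 ratio of 1.56 (1.25 to 1.88) in the Lcn2-ko-labelled library and 0.72 (0.40 to 1.04) in the wt-labelled library. The difference between these ratios was not tested.

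Outside T cells, cDC1 had 29.1 CPM of Cxcr3 in the Lcn2-ko-labelled library (70 UMIs) and 33.7 CPM in the wt-labelled library (129 UMIs). This is the level of CD8 T cells within counting error in both libraries (CD8 over cDC1 -0.11, -0.55 to 0.34, and 0.34, -0.03 to 0.70). T cell markers in cDC1 summed to 193 CPM and 192 CPM, their part was not tested, and Cxcr6 in the same cells was 7.47 and 3.92 CPM. NK cells had 21.9 and 17.7 CPM of Cxcr3, macrophages 10.96 and 11.4 CPM, and neutrophils, monocytes, mature and Cd209a dendritic cells and the tumour or stromal gate at most 4.39 CPM. By share of UMIs, Treg held 39.1% of the Cxcr3 in the Lcn2-ko-labelled library and 33.5% in the wt-labelled library, CD8 T cells 16.5% and 18.1%, and cDC1 9.68% and 18.0%.

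Cxcr6, the receptor for CXCL16, was more abundant and more confined to T cells, whose 4 gates held 86.5% of its UMIs in the Lcn2-ko-labelled library and 86.1% in the wt-labelled library. CD4 T cells had 374 CPM in the Lcn2-ko-labelled library (444 UMIs) and 299 CPM in the wt-labelled library (347 UMIs), a ratio of 0.32 (0.12 to 0.53). CD8 T cells had 300 CPM (1328 UMIs) and 302 CPM (924 UMIs), a ratio of -0.01 (-0.13 to 0.11). CD4 T cells were thus above CD8 T cells in the Lcn2-ko-labelled library (0.32, 0.16 to 0.47) and level with them in the wt-labelled library (-0.01, -0.20 to 0.17).

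Other T cells followed at 169 and 181 CPM (-0.10, -0.34 to 0.14), then Treg at 139 and 127 CPM (0.13, -0.06 to 0.32). The step between these classes was beyond counting error in both libraries. NK cells had 17.5 CPM in the Lcn2-ko-labelled library (20 UMIs) and 33.0 CPM in the wt-labelled library (28 UMIs), a ratio of -0.91 (-1.82 to -0.03) in a class where 7.44% of genes of at least 20 CPM were called lower. With classes taken from clusters the NK ratio was 0.19, so its direction turned. Macrophages had 28.7 and 26.6 CPM, and the 6 remaining myeloid and tumour or stromal classes 0.359 to 19.9 CPM.

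In cells thinned to 800 UMIs a Cxcr6 UMI was found in 23.9% of Lcn2-ko-labelled CD8 T cells and 22.9% of wt-labelled CD8 T cells, and in 24.4% and 24.9% of CD4 T cells, beside 0.30% and 0.17% of neutrophils. The higher Cxcr6 total of the Lcn2-ko-labelled library thus stood beside more CD8 T cells, not a higher level per CD8 T cell: CD8 T cells held 44.8% of Cxcr6 UMIs in the Lcn2-ko-labelled library and 39.9% in the wt-labelled library. Both receptors in the same thinned cell were found in 7 CD8 T cells against 7.90 by the product of shares in the Lcn2-ko-labelled library, and in 9 against 7.79 in the wt-labelled library. Among Treg it was 5 cells against 7.29, and 3 against 4.02.

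CD8 T cells were then split by Pdcd1, which encodes the inhibitory receptor PD-1 of activated and exhausted T cells. This and the other splits of CD8 T cells were chosen after values had been seen. Without thinning, a Pdcd1 UMI was present in 674 of 1186 Lcn2-ko-labelled CD8 T cells (56.8%) and 342 of 878 wt-labelled CD8 T cells (39.0%), a difference of 17.9 percentage points (13.6 to 22.1). In the Lcn2-ko-labelled library Cxcr3 stood at 15.4 CPM in cells with a Pdcd1 UMI and 46.9 CPM in cells without (log2 ratio -1.61, -2.18 to -1.05). In the wt-labelled library it stood at 18.3 CPM and 60.8 CPM (-1.73, -2.44 to -1.08). Cxcr3 was thus lower in the cells with Pdcd1 in both libraries, although those cells were deeper, with medians of 3489.5 UMIs in the Lcn2-ko-labelled library and 3322 in the wt-labelled library against 2702 and 2813 in cells without.

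Within the cells with a Pdcd1 UMI the Lcn2-ko over wt ratio of Cxcr3 was -0.25 (-1.003 to 0.53), and within those without it was -0.37 (-0.82 to 0.06), beside -0.66 in all CD8 T cells. Each of these intervals includes 0 and -0.66. Cxcr6 ran the other way between the cells: 323 CPM with and 261 CPM without Pdcd1 in the Lcn2-ko-labelled library (0.31, 0.14 to 0.48), and 379 CPM with and 244 CPM without in the wt-labelled library (0.64, 0.45 to 0.83). Among cells with Pdcd1 Cxcr6 was lower in the Lcn2-ko-labelled library (-0.23, -0.39 to -0.07), and among those without the ratio was 0.10 (-0.10 to 0.29).

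**Figure D5:**
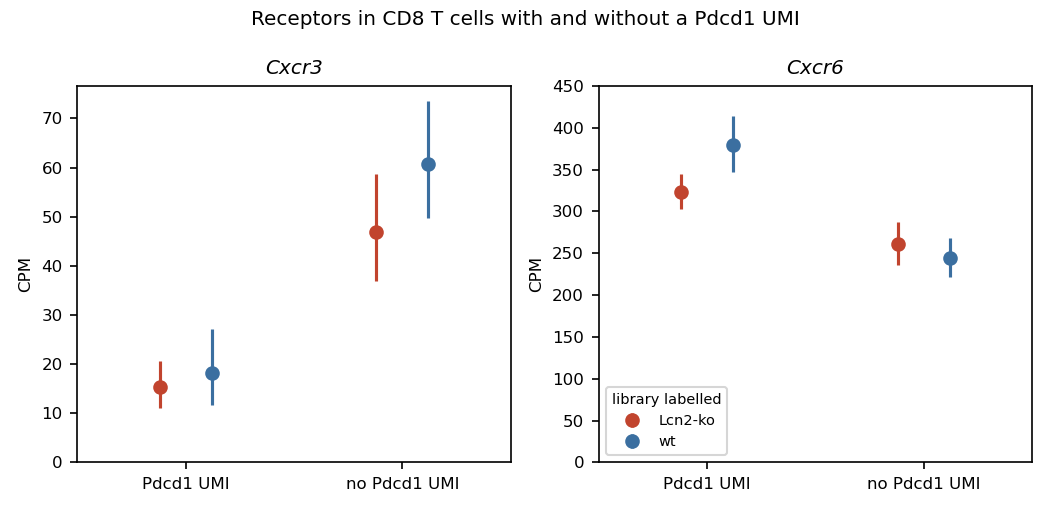
Cxcr3 (left) and Cxcr6 (right) in CPM in CD8 T cells with and without a Pdcd1 UMI, in the libraries labelled Lcn2-ko (red) and wt (blue), with exact 95% Poisson intervals for counting error. Cxcr3 is lower and Cxcr6 higher in the cells with Pdcd1 in both libraries.

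Ly6c2, a surface marker of central-memory and effector CD8 T cells, split the receptors in the opposite sense. Cxcr3 was 36.4 CPM with and 18.8 CPM without a Ly6c2 UMI in the Lcn2-ko-labelled library (0.95, 0.40 to 1.52), and 68.0 CPM and 23.8 CPM in the wt-labelled library (1.52, 0.97 to 2.08). Cells with a UMI of Gzmc, Gzmd, Gzme or Gzmf, granzymes of strongly stimulated killer cells, had 12.01 CPM of Cxcr3 in the Lcn2-ko-labelled library and 23.3 CPM in the wt-labelled library, from only 9 and 8 UMIs. The Lcn2-ko over wt ratio of Cxcr3 was -0.90 (-1.37 to -0.44) in cells with Ly6c2 and -0.34 (-0.98 to 0.30) in those without. It was -0.96 (-2.50 to 0.62) in cells with one of these granzymes and -0.58 (-0.97 to -0.20) in those without. Their Cxcr6, at 296 and 297 CPM, was level with that of the other CD8 T cells, at 301 and 303 CPM.

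Marrow came from males and hosts were female, so Xist UMIs mark host cells and Y-linked UMIs marrow-derived cells, but 43.5% of Lcn2-ko-labelled CD8 T cells and 43.6% of wt-labelled CD8 T cells had neither. MB49 is a male line, so Y-linked RNA from tumour cells could also reach a T cell's count. Among CD8 T cells with Xist only, Cxcr3 was 13.4 CPM in the Lcn2-ko-labelled library (12 UMIs in 216 cells) and 63.6 CPM in the wt-labelled library (22 UMIs in 99 cells), a ratio of -2.24 (-3.39 to -1.16). Among those with Y-linked RNA only it was 30.2 CPM (52 UMIs) and 29.8 CPM (43 UMIs), a ratio of 0.02 (-0.59 to 0.64). The libraries parted in the cells with Xist only, from 12 and 22 UMIs. They did not detectably part in those with Y-linked RNA only. The difference between these ratios was not tested, and the split was chosen after values had been seen. Cxcr3 in cells with neither or both markers was not read apart. The split therefore does not place the difference seen in all CD8 T cells in either group. Without thinning, Pdcd1 was found in 73.6% and 36.4% of the cells with Xist only, and in 54.5% and 43.1% of those with Y-linked RNA only. Median depths were 3589 and 3188 UMIs with Xist only, and 3259 and 3195 UMIs with Y-linked RNA only.

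The interferon pathway around these genes was read from a list of 30 genes of interferon signalling, ligand processing and receptor-side transcription factors. Of these, 29 had a row. Cxcl11, listed as another CXCR3 ligand, had no row under that symbol and is annotated in mouse as a polymorphic pseudogene (GENCODE vM21). Between 19 and 24 of the 29 genes reached 20 CPM per class, and 0 to 3 per class and direction passed 1.5-fold. The median ratio of the measured genes ran from -0.15 in cDC1 to 0.12 in monocytes, beside medians over all genes of 20 CPM or more of -0.03 to 0.02. In the tumour or stromal gate none of 19 passed in either direction, where 0.372% of genes were called higher and 0.58% lower. Irf1, an early interferon-gamma target, had 209 CPM in that gate in the Lcn2-ko-labelled library and 180 CPM in the wt-labelled library (0.21, 0.14 to 0.29). The median ratio of the list was 0.03, beside -0.03 over all genes of the gate.

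In macrophages 2 of 24 genes were lower and none higher, where 3.13% of genes were called lower and 1.85% higher. Ifnb1, the gene of interferon-beta, had 11 UMIs in Lcn2-ko-labelled macrophages (4.16 CPM) and 98 UMIs in wt-labelled macrophages (41.4 CPM), a ratio of -3.32 (-4.37 to -2.41). A single wt-labelled cell held 25 of the 98 UMIs, and without the richest cell of each library the ratio was -3.19. Stat2, which carries type I interferon signals, had 45.7 and 69.8 CPM (-0.61, -0.96 to -0.26). Irf1 stood at 245 and 275 CPM (-0.17, -0.33 to -0.01). So Ifnb1, Stat2 and Cxcl10 were lower in the Lcn2-ko-labelled macrophages while Irf1 and Cxcl9 were within 1.5-fold.

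Neutrophils had 1 gene higher and 2 lower of 23, where 9.01% of genes were called higher and 8.16% lower. Irf1 stood at 401 CPM in the Lcn2-ko-labelled library (262 UMIs) and 207 CPM in the wt-labelled library (254 UMIs), a ratio of 0.95 (0.70 to 1.20). Irf7, a factor of the type I interferon response, had 36.7 and 71.0 CPM (-0.95, -1.67 to -0.29), and Ifnb1 2 and 31 UMIs (-3.05, -6.16 to -1.08). In monocytes 2 of 24 were higher, Ifngr1, a chain of the interferon-gamma receptor, at 218 and 145 CPM (0.60, 0.13 to 1.08) and Il15, a cytokine for T and NK cells, at 30 and 9 UMIs (0.93, -0.18 to 2.19), where 12.3% of genes were called higher and 14.1% lower.

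Of the dendritic classes, cDC1 had 1 of 22 lower, Tnf, an inflammatory cytokine, at 137 CPM in the Lcn2-ko-labelled library and 232 CPM in the wt-labelled library (-0.76, -0.94 to -0.57), where 1.7% of genes were called higher and 3.01% lower. Mature dendritic cells had 3 of 23 lower, where 9.24% of genes were called higher and 12.4% lower. They were Prdm1, a repressor of transcription, at 36.2 and 83.5 CPM (-1.20, -1.96 to -0.49), Irf7 from 11 and 24 UMIs with an interval that reaches 0, and Tnf at 72.5 and 145 CPM (interval of the log2 ratio -1.53 to -0.49).

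Ifng, the gene of interferon-gamma, was measured in 5 lymphoid classes. It stood at 202 CPM in Lcn2-ko-labelled CD4 T cells and 151 CPM in wt-labelled CD4 T cells (0.42, 0.13 to 0.71), at 160 and 139 CPM in CD8 T cells (0.20, 0.02 to 0.37), at 81.1 and 104 CPM in other T cells (-0.35, -0.69 to -0.02) and at 71.7 and 62.4 CPM in NK cells (0.20, -0.31 to 0.73). Treg had 42 UMIs in the Lcn2-ko-labelled library and 154 in the wt-labelled library, a ratio of -1.93 (-2.46 to -1.43), where 1.46% of genes were called lower and as many higher. One wt-labelled cell held 68 of the 154 UMIs, and without the richest cell of each library the ratio was -1.27. It was the 1 gene of 23 called in Treg.

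In CD8 T cells 1 of 24 was higher and 1 lower, where 1.32% of genes were called higher and 2.37% lower. Irf8, a transcription factor of dendritic cells that activated T cells also make, had 292 CPM in the Lcn2-ko-labelled library and 178 CPM in the wt-labelled library (0.72, 0.57 to 0.86). Eomes, a T-box factor of effector and memory CD8 T cells, had 36.6 and 66.4 CPM (-0.86, -1.16 to -0.55), beside Cxcr3 at -0.66 in the same cells. Irf8 was also a marker of the cDC1 gate and Eomes of the NK gate, so the gates used them. CD8 Irf1 was 238 and 303 CPM (-0.35, -0.48 to -0.22). Eomes was the 1 gene of 23 called in other T cells, at 20.4 and 34.6 CPM, where 4.1% of genes were called higher and 5.0% lower. NK cells had Prdm1 higher from 42 and 17 UMIs (0.88, 0.03 to 1.78), and Stat2 (26 and 32 UMIs; -0.73, -1.53 to 0.06) and Irf7 (15 and 18 UMIs; -0.69, -1.78 to 0.38) past the limit on the lower side with intervals that include 0, where 4.9% of genes were called higher and 7.44% lower. None of 22 was called in CD4 T cells, where 5.34% of genes were called higher and 7.53% lower.

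Irf1 was within 1.5-fold in the remaining classes. It stood at 301 CPM in Lcn2-ko-labelled other T cells and 359 CPM in wt-labelled other T cells (-0.25, -0.43 to -0.08). Treg had 406 and 417 CPM, cDC1 199 and 197 CPM, CD4 T cells 231 and 259 CPM, NK cells 282 and 247 CPM, monocytes 406 and 367 CPM and mature dendritic cells 403 and 428 CPM. In these 6 classes the interval of the ratio includes 0.

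Over 26 class totals (13 classes in 2 libraries) the genes whose log2(CPM + 1) ran most like a member were found among 6229 genes; these correlations describe class patterns, share libraries and marker-based gates, and carry no test. Cxcl16 ran with the antigen-presentation genes H2-Aa (r = 0.98), H2-Eb1, Cd74, H2-Ab1 and Ciita (0.94). Cxcl9 ran with Sdc3 (0.93), Slamf8, Psap, Asah1 and Lacc1 (0.87), and Cxcl10 with Ifi204 (0.91), Cxcl3, Tlr2, Tpd52 and Lrp1 (0.89). Among the receptors, Cxcr3 ran with Grap (0.90), Ptpn22, Osbpl3, Ifngr1 and Gimap7 (0.86), and Cxcr6 with Icos (0.95), Cd28, Cd3e, Cd3g and Themis (0.94). Cd28, Cd3e and Cd3g were themselves markers of the T cell gate, so the gating shaped their class pattern. Between members, Cxcl9 and Cxcl10 had r = 0.70 and Cxcr3 and Cxcr6 r = 0.83.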

How the data were processed

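Single-cell RNA of live CD45+ cells from MB49 tumours was captured with BD Rhapsody, 1 library per genotype label, per the labels' protocols. The submitters' processing notes name Cell Ranger and mm10, with no version or role. The deposited matrices hold raw UMI counts per gene and cell, made by the authors and not normalized further.

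Cells under 200 genes or over 20% mitochondrial UMIs were dropped, and the 4% with the highest Scrublet scores were left out (scanpy 1.11.5, Python 3.11.15), since the automatic threshold marked 1 cell per library. A cell entered a class with at least 3 of its markers and a lead of more than 10 percentage points over the next list. UMIs were summed per class, and differences carry exact conditional binomial, Poisson or Clopper-Pearson intervals at 95% (scipy 1.17.1), or Newcombe intervals for differences of shares. Genes that reached 50 CPM in one library or the other were called past 1.5-fold, and for the pathway list 20 CPM sufficed. Shares of cells were compared after thinning each cell to 800 UMIs. With 1 library per label no count model was fitted; edgeR 4.0.16 (R 4.3.3) served for the scaling alternative alone. The ratio and interval steps were tested on simulated data.

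The genes described, the marker and pathway lists and the splits were chosen with earlier results of these data known. Genes named from the pathway list are those past the limit, at most 4 per class, plus Irf1 and Ifng (1 further gene is not reported here), and the genes most like a member are the 5 with the highest correlation.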

Additional observations from a re-analysis of the deposited data

Results flagged for a closer look

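Cxcl10 stood apart in opposite directions in different classes: its log2 ratio of the Lcn2-ko-labelled library to the wt-labelled library was -0.94 in macrophages and 1.23 in other T cells, with intervals on opposite sides of 0. Cxcr6 did so in NK cells, at -0.91 from 20 and 28 UMIs, and in CD4 T cells, at 0.32 from 444 and 347 UMIs. These differences between classes were not tested, since each label has 1 library. Over the alternatives tried, the Cxcl10 ratio lay between -1.21 and -0.86 in macrophages and between 0.30 and 1.49 in other T cells. Cxcl10 thus kept its direction in both classes, but fell under 1.5-fold in other T cells under some alternatives. The Cxcr6 ratio lay between -1.44 and 0.19 in NK cells and between 0.01 and 0.38 in CD4 T cells. Its direction in NK cells turned with classes taken from clusters.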

How the results depend on the processing

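No paired analysis was possible because each label has 1 library. Of 490 alternative values of 41 ratios, 427 lay within the interval of the reported value and 60 outside it. In 3 cases a ratio past 1.5-fold changed sign, all of pairs under 50 CPM and so not among the called ones: Cxcl9 in other T cells was -0.30 with no lead needed in the gate (1.21 as reported), and with classes taken from clusters Cxcl16 in other T cells was -0.61 (1.07) and Cxcr6 in NK cells 0.19 (-0.91). Cxcl9 in mature dendritic cells (2.15) was 1.27 from clusters and 1.38 with no lead. Leaving out its 10 richest cells gave no value, since the wt-labelled library has 9 cells with a UMI. Cxcl10 in macrophages (-0.94) was -1.09 thinned, -1.06 as a mean over cells and -1.21 without the 10 richest cells. Cxcl10 in other T cells (1.23) was 0.58 from clusters, 0.44 with no lead and 0.30 without the 10 richest cells. The causes were not tested.

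The share of Cxcl9 UMIs in the tumour or stromal gate was, in the Lcn2-ko-labelled library (48.8%), 47.1% with no doublet removal, 57.9% from clusters, 42.7% thinned and 55.5% with no lead, and in the wt-labelled library (38.7%) 44.7% from clusters, 36.1% thinned and 43.0% with no lead. For Cxcl10 it was 47.8%, 57.0%, 36.3% and 54.2% under the same 4 settings in the Lcn2-ko-labelled library (49.8%), and 47.3% from clusters, 25.3% thinned and 45.1% with no lead in the wt-labelled library (38.4%). The Cxcl16 share in cDC1 was 19.1% from clusters, 18.4% thinned and 22.7% with no lead in the Lcn2-ko-labelled library (21.5%), and 29.0% thinned and 32.8% with no lead in the wt-labelled library (31.3%). In the Lcn2-ko-labelled library the Cxcr3 share in Treg (39.1%) was 48.3% thinned and the Cxcr6 share in CD8 T cells (44.8%) 42.8% with no doublet removal.

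At a limit of 20 CPM, 9 of 41 member pairs were higher (22.0%) and 3 lower (7.32%), against 5 and 1 of 27 as reported. Over all genes at that limit, 3075 of 67928 pairs were higher (4.53%) and 3939 lower (5.80%), against 937 and 1150 of 38011 as reported. At 2-fold, 3 of 27 member pairs were higher (11.1%) and 0 lower. Beside them, 205 of 38011 gene pairs were higher (0.539%) and 246 lower (0.647%). Needing no lead, leaving out 10 cells and the limit on tumour markers were chosen after seeing the data. Depth limits Cxcr3, of which no class has more than 283 UMIs.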

Other observations

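Classes under 100 cells in a library and cells that no gate took were not compared in the report. Cd209a dendritic cells, of which there were 89 in the Lcn2-ko-labelled library and 116 in the wt-labelled library, had 526 and 398 CPM of Cxcl16, 85.5 and 104 CPM of Cxcl9, and 29 and 163 UMIs of Cxcl10. A single wt-labelled cell held 61 of those 163 Cxcl10 UMIs. These dendritic cells had 0.617 (0.375 to 1.001) and 2.12 (1.60 to 2.81) Cxcl10 UMIs per Cxcl9 UMI in the Lcn2-ko-labelled and wt-labelled libraries. Unassigned cells had 333 CPM of Cxcl9 in the Lcn2-ko-labelled library and 225 CPM in the wt-labelled library, 339 and 421 CPM of Cxcl10, and 253 and 272 CPM of Cxcl16. They held 20.9% and 23.2% of all Cxcl9 UMIs. Their Cxcl10 UMIs per Cxcl9 UMI, at 1.02 (0.951 to 1.08) and 1.87 (1.75 to 2.001), stood in the same order between the labels as in macrophages.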
